A study of Mus musculus with 8 samples.

Results

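The clustered histone genes are the histone genes that lie side by side in a few genomic clusters, here the genes whose symbol in the deposited table begins with Hist1h, Hist2h, Hist3h or Hist4h. The rule found 9 of 20667 genes, read by 13 of 45037 probe sets: 3 linker histone (H1) genes, 1 H2A gene, 3 H2B genes and 2 H3 genes. No probe set carried such a symbol for an H4 gene, so H4 was not analysed here. RefSeq holds 70 genes that carry an older symbol of this form, of which 6 are H1, 20 H2A, 19 H2B, 12 H3 and 13 H4 genes, so most of the family lies outside the 9. All 9 matched a RefSeq gene. The 6 genes of the first cluster lie on chromosome 13, Hist2h2bb and Hist2h2be lie on chromosome 3, and Hist3h2a lies on chromosome 11.

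RNA of the tibial plateau of the knee, articular cartilage taken in 1 piece with the bone under it, was measured on 8 microarrays. There were 4 Anp32a knockout mice, whose strain and allele the sources used here do not give, and 4 wild-type C57BL/6 mice, all 8 weeks old, with 1 numbered mouse per array per the file headers. The comparison sets cartilage and bone of Anp32a knockout mice against the same tissue of wild-type mice. Values are log2 expression values made by the authors with RMA (robust multi-array average), a method that corrects background, gives all arrays 1 distribution and sums up the probes of a probe set. Every mean stands with its SD over the 4 arrays of a group, and a fold change below 0 on the log2 scale means a lower reading in the knockout. Each gene was represented by its probe set of highest mean, and differences were tested with limma over all 20667 genes, with Benjamini-Hochberg adjustment and a threshold of 0.05.

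In the nucleosome, DNA is wound around a core of the histones H2A, H2B, H3 and H4, and the linker histone H1 sits where DNA enters and leaves that core. Most clustered histone genes are transcribed in S phase, when new DNA must be packaged, and their mRNAs end in a stem-loop in place of a poly(A) tail. Some of them, among them Hist1h1c, Hist1h2bc and Hist2h2be, also give polyadenylated mRNAs that are found in cells that no longer divide. The protein made by Anp32a binds histones and, with SET, is part of a complex that inhibits histone acetylation. Mature chondrocytes seldom divide, while the marrow under the joint surface holds dividing blood cell precursors. The sources used here do not name the primer that started the reverse transcription, which bears on which histone mRNAs an array can read.

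The genotype and tissue labels were checked first. Of the 3 Anp32a probe sets, the first read 4.98, 4.05, 4.33 and 5.04 in knockout, absent on all 4, against 9.95, 9.91, 9.76 and 9.91 in wild type, present on all 4. The reading was at least 38.9-fold lower, with a limma adjusted p of 5.9e-06. The other 2 were called present on all 4 arrays of each group. They averaged 9.89 ± 0.12 and 8.70 ± 0.08 in knockout, against 10.40 ± 0.04 and 9.15 ± 0.05 in wild type. Their log2 fold changes were -0.51 and -0.45 (limma over all probe sets gave adjusted p = 0.0555 and 0.0641). The brighter of these is the Anp32a probe set of highest mean. Which part of the gene each reads is not known here. All 13 chondrocyte markers, among them Col2a1, Acan and Sox9, were called present on all 8 arrays. Knockout 2 and knockout 3 stood apart on the first principal component, at 44.0 and 44.5, against 11.3 and -11.9 for knockout 1 and knockout 4 and -9.88 to -36.7 for the wild types. All p-values rest on the spread among these 8 mice, and in bulk tissue fewer cells of a type and less RNA per cell cannot be told apart.

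No clustered histone gene of the rule passed the threshold, while the 6 called present on at least 4 arrays all read lower in the knockout. Of the 9 genes, 0 had a limma adjusted p under 0.05, against 0.0532% of all genes in either direction and 0.0242% lower. At an unadjusted limma p under 0.05, 4 of 9 read lower and 0 read higher, against 9.26% of all genes lower, 10.1% higher and 19.4% in either direction. These 4 were Hist1h1c, Hist3h2a, Hist1h2bp and Hist1h3f. The same 4 were the members whose groups did not overlap, all lower in the knockout, against 5.42% of all genes lower without overlap and 10% without overlap in either direction. The fold change was below 0 for 7 of 9 members and for 46.2% of all genes. The median log2 fold change was -0.21 over the 9 members and 0.013 over all genes. A detection call of present on at least 4 of 8 arrays was given to 6 of the 9 genes, and the fold changes of these 6 ran from -0.42 to -0.17. The 46.2% covers genes detected or not, and no share below 0 among detected genes alone was computed. The other 3, Hist1h1e, Hist1h1t and Hist2h2bb, were at or near background. Hist1h2bp, Hist1h3d and Hist1h3f also had low signal, at 5.64, 5.86 and 5.45 in knockout and 6.01, 6.03 and 5.87 in wild type. Hist1h1t and Hist2h2bb averaged 5.78 and 5.90 in knockout and 5.79 and 5.87 in wild type. What separates them from Hist1h2bp, Hist1h3d and Hist1h3f is the detection call, not clearly the brightness. Members share sequence, so they are not independent readings.

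**Figure D1:**
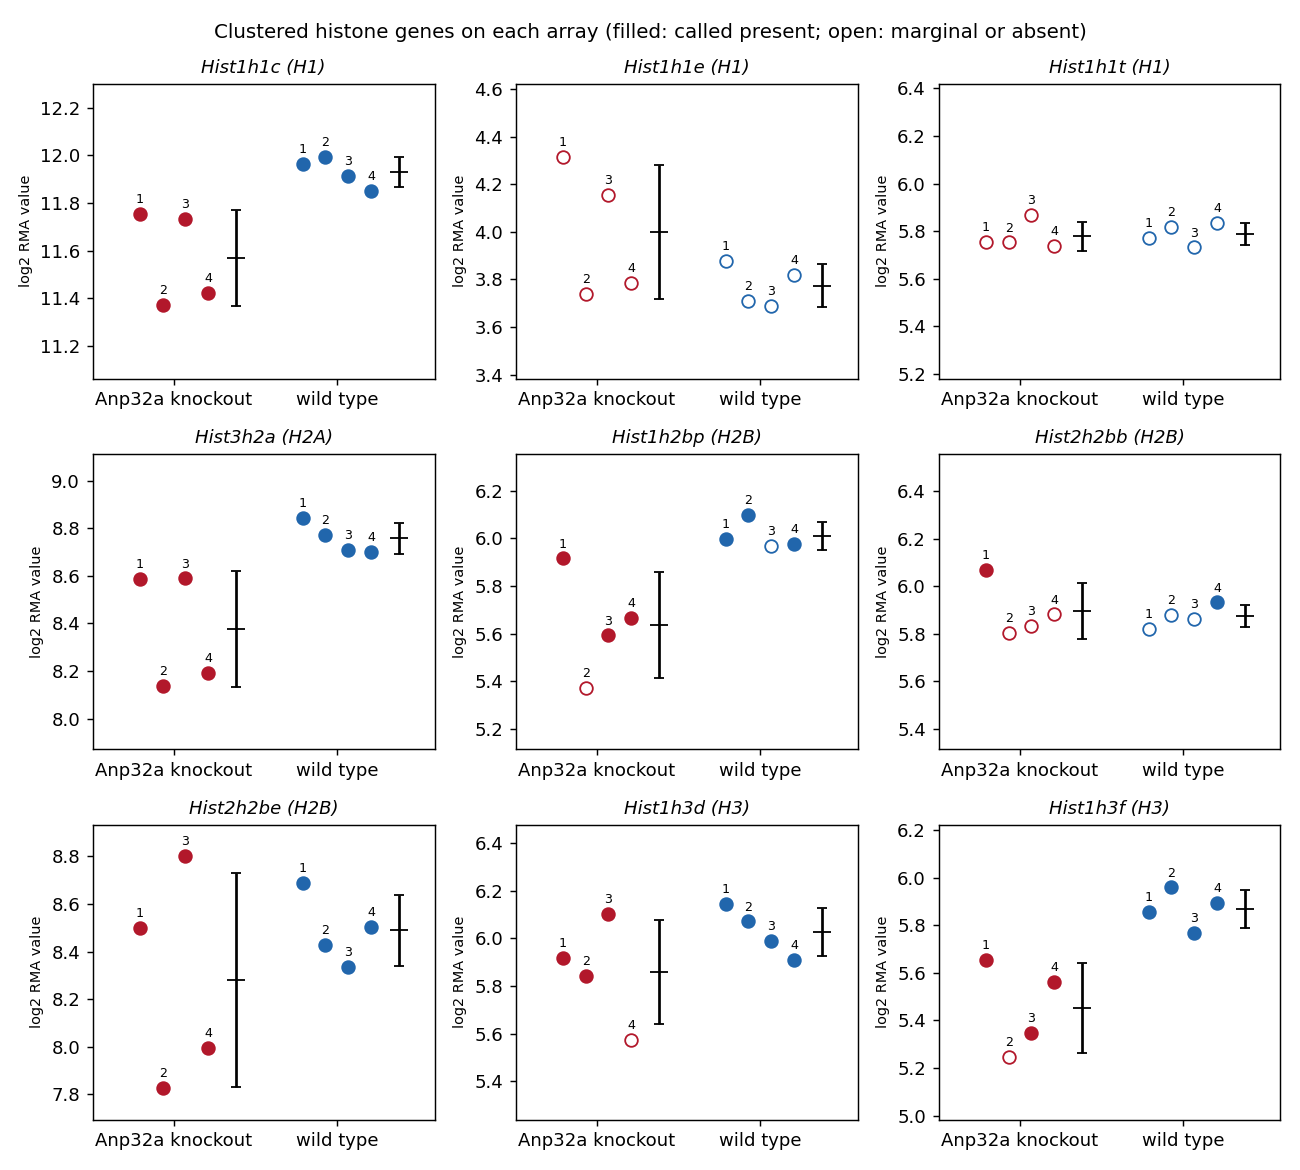
Log2 RMA values (vertical axes, each spanning the same range of log2 units) of the 9 clustered histone genes on the knockout and wild-type arrays, with array numbers beside the points and mean ± SD bars (n = 4) to the right of each group; filled points were called present. For Hist1h1c, Hist3h2a, Hist1h2bp and Hist1h3f every knockout point lies under every wild-type point.

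Among the linker histones, Hist1h1c was the member that the arrays read well. Hist1h1c encodes H1.2, a linker histone made in most body tissues. Its brightest probe set read 11.75, 11.37, 11.73 and 11.42 on knockout arrays 1 to 4, against 11.97, 11.99, 11.91 and 11.85 on wild-type arrays 1 to 4, present on all 8. All 4 knockout arrays lay under the lowest wild-type array, and knockout 2 and knockout 4 were the lowest. The means were 11.57 ± 0.20 in knockout and 11.93 ± 0.06 in wild type, a log2 fold change of -0.36 (SE 0.10, 95% interval -0.58 to -0.14, 1.28-fold lower, limma adjusted p = 0.16). Its second probe set read 11.23, 10.64, 11.20 and 10.89 in knockout, against 11.37, 11.21, 11.41 and 11.34 in wild type (log2 fold change -0.34; limma over all probe sets gave an adjusted p = 0.2). Here too knockout 2 and knockout 4 were lowest, while knockout 1 lay within the wild-type range. The last Hist1h1c probe set was called absent on all 8 arrays and gives no reading of the gene.

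Hist1h1e, which encodes the linker histone H1.4, was called absent on all 8 arrays. It read 4.32, 3.74, 4.15 and 3.79 in knockout, against 3.88, 3.71, 3.69 and 3.82 in wild type, so that no fold is given. Hist1h1t, the gene of the linker histone of the testis, was called present on no array and marginal on 1 array of each group, at 5.78 ± 0.06 in knockout and 5.79 ± 0.05 in wild type. Over the 3 H1 genes the median log2 fold change was -0.01. With only probe sets present on at least 4 arrays, where Hist1h1c alone is left, it was -0.36.

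The promoter windows of the linker histone genes are shown because the genes share their layout while the arrays detected only Hist1h1c. RefSeq's table for GRCm38.p6 held windows of 300 bases, most of them upstream of the annotated start of the gene, for 7 of the 9 genes, and not for Hist2h2be and Hist1h3f. The windows were searched on both strands for 4 motifs that histone promoters are known to carry, which are the TATA box TATAAA, the CCAAT box, the octamer ATTTGCAT and the H1 box AAACACA. Negative positions count bases upstream of the start. Capitals mark every match on either strand. The first window is chr13:23738557-23738856 on the plus strand, and the second is chr13:23622509-23622808, read on the minus strand.
Hist1h1c: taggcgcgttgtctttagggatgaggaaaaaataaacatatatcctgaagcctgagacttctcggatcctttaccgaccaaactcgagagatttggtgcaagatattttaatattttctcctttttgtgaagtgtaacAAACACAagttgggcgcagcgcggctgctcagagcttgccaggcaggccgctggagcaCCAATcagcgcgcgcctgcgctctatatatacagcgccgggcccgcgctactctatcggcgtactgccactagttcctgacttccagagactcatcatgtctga
Hist1h1e: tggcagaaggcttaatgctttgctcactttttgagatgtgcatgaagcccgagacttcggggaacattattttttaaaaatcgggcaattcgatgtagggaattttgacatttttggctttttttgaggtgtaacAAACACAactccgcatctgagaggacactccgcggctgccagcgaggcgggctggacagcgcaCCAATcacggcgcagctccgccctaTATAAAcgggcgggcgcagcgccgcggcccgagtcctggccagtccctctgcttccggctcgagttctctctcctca
The H1 box began at position -112 in Hist1h1c, -115 in Hist1h1e and -114 in Hist1h1t, and was found in no window of the other 4 genes. A single CCAAT stood at -54, -52 and -65 in the same order. Of all 32851 promoter windows in the table, 7.18% held AAACACA and 37.4% held CCAAT on either strand. On either strand, CCAAT was present in 7 of 7 member windows and TATAAA in 3 of 7, the latter against 13.6% of all windows. TATAAA began at -27 in Hist1h1e. Hist1h3d held it at -168 and -161, and on the minus strand at -32. Hist1h2bp held it only on the minus strand, at -212. A match is a description of letters and not of a bound site, and the windows hold no measurement of these mice.

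Hist3h2a was the only H2A gene of the rule, and it read lower on every knockout array. It encodes a core histone H2A and lies in the third cluster. Its brightest probe set, which ends in _s_at, a mark of probes that may read several transcripts, read 8.59, 8.14, 8.59 and 8.19 on knockout arrays 1 to 4, against 8.85, 8.77, 8.71 and 8.70 on wild-type arrays 1 to 4, present on all 8. The groups did not overlap, and knockout 2 and knockout 4 were again the lowest. The means were 8.38 ± 0.24 in knockout and 8.76 ± 0.07 in wild type (log2 fold change -0.38, SE 0.11, 95% interval -0.64 to -0.13, 1.30-fold lower, limma adjusted p = 0.166). The other probe set, whose identifier does not mark it as shared with other transcripts, read 6.31, 5.93, 6.51 and 6.11 in knockout, against 6.51, 6.34, 6.58 and 6.52 in wild type. There knockout 3 lay within the wild-type range and the other 3 below it (log2 fold change -0.28; limma over all probe sets gave an adjusted p = 0.254).

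The promoter windows of Hist3h2a and Hist1h2bp are shown as those of the core histone genes whose groups did not overlap and for which a window was held, at chr11:58954435-58954734 and chr13:21787238-21787537, both on the plus strand. Capitals mark the same 4 motifs.
Hist3h2a: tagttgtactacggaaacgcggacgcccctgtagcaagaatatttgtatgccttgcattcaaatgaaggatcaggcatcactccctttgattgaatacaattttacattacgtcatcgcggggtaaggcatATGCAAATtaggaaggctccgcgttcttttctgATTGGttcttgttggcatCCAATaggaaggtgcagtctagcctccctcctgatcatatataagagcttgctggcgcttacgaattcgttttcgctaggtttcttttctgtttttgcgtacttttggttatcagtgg
Hist1h2bp: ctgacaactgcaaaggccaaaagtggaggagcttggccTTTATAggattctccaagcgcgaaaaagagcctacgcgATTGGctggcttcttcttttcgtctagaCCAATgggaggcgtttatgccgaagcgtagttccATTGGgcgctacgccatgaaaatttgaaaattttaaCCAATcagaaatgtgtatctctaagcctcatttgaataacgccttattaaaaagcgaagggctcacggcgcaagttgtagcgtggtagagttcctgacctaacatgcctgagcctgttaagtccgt
Hist3h2a held the octamer on the minus strand at -119 and CCAAT once on each strand. Hist1h2bp held 4 matches to CCAAT, 2 on each strand, and TATAAA on the minus strand at -212. The octamer, known from H2B promoters, was also found in the Hist2h2bb window at -48, and in 1.74% of all windows.

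The 3 H2B genes, which encode the partner of H2A in the core, differed in detection. Hist1h2bp read 5.92, 5.37, 5.59 and 5.66 on knockout arrays 1 to 4, against 6.00, 6.10, 5.97 and 5.98 on wild-type arrays 1 to 4. It was present on 3 arrays and marginal on 1 in each group. All 4 knockout arrays lay under the wild types, with knockout 1 closest to them and knockout 2 farthest. The means were 5.64 ± 0.22 in knockout and 6.01 ± 0.06 in wild type (log2 fold change -0.37, SE 0.11, 95% interval -0.61 to -0.14, limma adjusted p = 0.16). Its single probe set ends in _x_at, which in this naming marks probes that may also bind other transcripts, so the reading may not be of Hist1h2bp alone.

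Hist2h2be, known in mice for an H2B form of olfactory neurons, was the member with the widest spread among the knockout arrays. It read 8.50, 7.83, 8.80 and 7.99 in knockout, against 8.69, 8.43, 8.34 and 8.51 in wild type, present on all 8 arrays, with a probe set that also ends in _s_at. Knockout 2 and knockout 4 lay below every wild-type array, knockout 1 among them and knockout 3 above every wild-type array. The log2 fold change was -0.21 (SE 0.20, 95% interval -0.65 to 0.23, limma adjusted p = 0.613). The other probe set gave 7.61, 7.22, 7.86 and 7.19 in knockout, against 7.76, 7.79, 7.52 and 7.60 in wild type, the same order of the knockout arrays apart from knockout 2 and 4, which were close (log2 fold change -0.20). The Hist2h2be fold change was -0.06 without knockout 2, -0.38 without knockout 3 and -0.11 without knockout 4. Hist2h2bb was present on 1 array of each group, at 5.90 ± 0.12 in knockout and 5.87 ± 0.05 in wild type (log2 fold change 0.02, 95% interval -0.14 to 0.18, limma adjusted p = 0.901). Over the H2B genes the median log2 fold change was -0.21, with -0.06 without knockout 2, -0.36 without knockout 3, -0.11 without knockout 4 and -0.09 without probe sets ending in _s_at or _x_at.

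Of the 2 H3 genes, Hist1h3f had the smallest p of the 9 members. Both encode core histone H3. Hist1h3f read 5.65, 5.25, 5.35 and 5.56 on knockout arrays 1 to 4, against 5.85, 5.96, 5.77 and 5.89 on wild-type arrays 1 to 4. It was present on 4 wild-type arrays and on 3 knockout arrays, with a marginal call on knockout 2. The groups did not overlap, at 5.45 ± 0.19 in knockout and 5.87 ± 0.08 in wild type (log2 fold change -0.42, SE 0.10, 95% interval -0.63 to -0.20, 1.33-fold lower, limma adjusted p = 0.159). Without knockout 4 it was the only member past the threshold (log2 fold change -0.45, limma adjusted p = 0.0402), in a fit that called 8.64% of all genes, 4.07% of all genes lower. Over the 15 alternatives its adjusted p ran from 0.0402 to 0.643. Hist1h3d read 5.92, 5.84, 6.10 and 5.57 in knockout, against 6.14, 6.07, 5.99 and 5.91 in wild type. Knockout 2 and knockout 4 lay below the wild types, and the other knockout arrays among them (log2 fold change -0.17, 95% interval -0.42 to 0.08, limma adjusted p = 0.433). Over the H3 genes the median log2 fold change was -0.29.

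**Figure D2:**
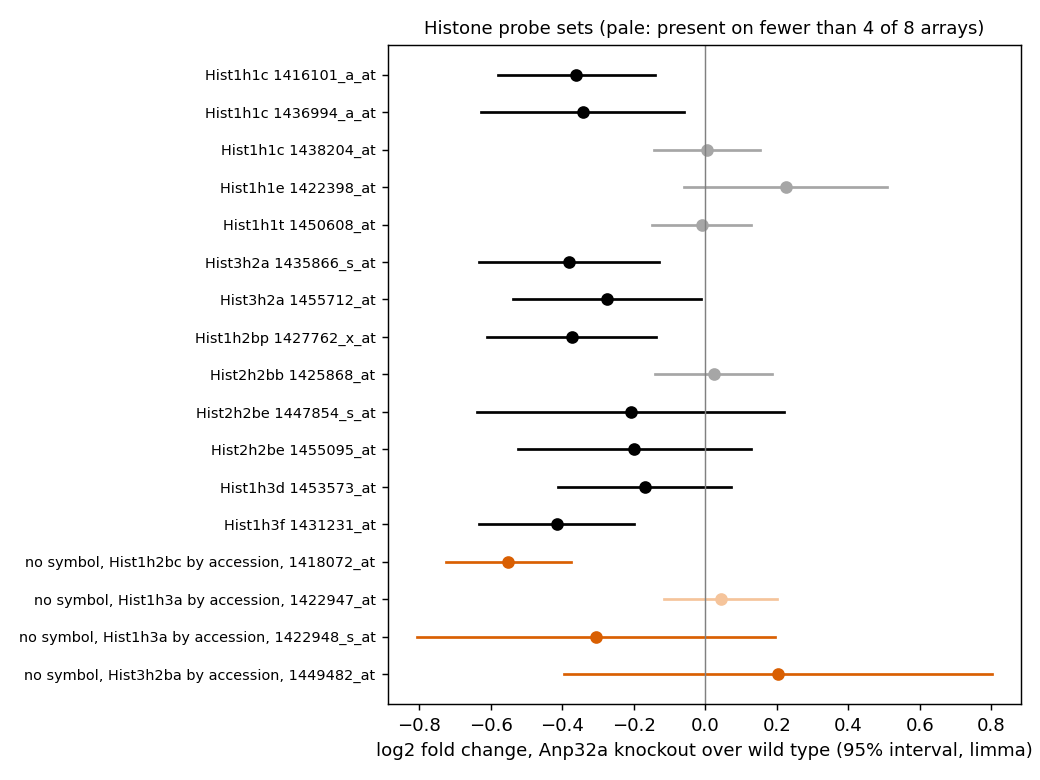
Log2 fold change, knockout over wild type, with its 95% interval from limma (n = 4 per group), for the 13 probe sets of the 9 genes (black) and the 4 probe sets matched by accession (orange); pale marks stand for probe sets present on fewer than 4 arrays. The interval lies below 0 for 6 of the 13, which belong to Hist1h1c, Hist3h2a, Hist1h2bp and Hist1h3f.

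The probe sets of a gene pointed the same way wherever they were detected. Of the 13 probe sets, 9 were present on at least 4 arrays and the fold change of 9 of these 9 was below 0. They belong to 6 genes. Of all probe sets, detected or not, 46% were below 0, and no share among detected probe sets alone was computed. In the test over all probe sets 0 of 13 passed, against 0.0533% of all probe sets in either direction and 0.0333% lower. At an unadjusted limma p under 0.05, 6 of 13 read lower and 0 higher, against 8.74% lower, 9.53% higher and 18.3% in either direction. The groups did not overlap for 4 of 13, all lower, against 5.07% lower and 9.42% in either direction. The authors' deposited table gives Hist1h1c and Hist1h3f adjusted p-values of 0.147 and 0.134.

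Further clustered histone genes are read by probe sets that have no symbol in the deposited table and so lie outside the rule. The accessions of 4 such probe sets matched RefSeq transcripts of Hist1h2bc, Hist1h3a (2 probe sets) and Hist3h2ba, and all 4 are given. The Hist1h2bc probe set, which reads an H2B gene, read 11.55, 11.28, 11.49 and 11.53 on knockout arrays 1 to 4, against 11.91, 12.04, 12.08 and 12.03 on wild-type arrays 1 to 4, present on all 8. The groups did not overlap and the spread within each was small, at 11.46 ± 0.12 in knockout and 12.01 ± 0.08 in wild type. The log2 fold change was -0.55 (SE 0.08, 95% interval -0.73 to -0.38, 1.47-fold lower; limma over all probe sets gave an adjusted p = 0.0555). It passed with array weights and without knockout 4 (limma adjusted p = 0.039 and 0.0196). Over genes, the fit with array weights called 14 of 20667, and the fit without knockout 4 called 8.64%. The shares of all probe sets called in these fits are not given here. Its fold change ran from -0.59 to -0.47 over 13 alternatives, with limma adjusted p up to 0.255.

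The 2 probe sets of Hist1h3a, an H3 gene, differed in detection. One was called absent on all 8 arrays. The other, which ends in _s_at and may read several transcripts, read 10.40, 9.10, 9.40 and 9.57 in knockout, against 9.97, 9.86, 9.87 and 9.99 in wild type (log2 fold change -0.31; limma over all probe sets gave an adjusted p = 0.522). Knockout 1 lay above all wild types there and the other 3 below them. The Hist3h2ba probe set, of an H2B gene in the third cluster, read 7.78, 6.88, 7.50 and 6.45 in knockout, against 7.34, 7.05, 6.67 and 6.75 in wild type, present on 3 knockout and 2 wild-type arrays, with overlapping groups (log2 fold change 0.20; limma over all probe sets gave an adjusted p = 0.757). By the rule of at least 4 present arrays the Hist3h2ba probe set counts as detected, and its mean was higher in the knockout. Over 13 alternatives the fold change ran from -0.57 to 0.06 for the detected Hist1h3a probe set and from -0.01 to 0.44 for Hist3h2ba, with 0 past the threshold.

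Genes of DNA replication and mitosis had higher means in the knockout, and none passed. Of 26 genes of DNA replication and nucleotide supply, all had fold changes above 0 and 20 had an unadjusted limma p under 0.05 (median 0.53), and of 16 mitosis genes all were above 0 and 13 were under 0.05 (median 0.53), against 10.1% of all genes higher. Gins2, of the replication list, and Ccnb1, of the mitosis list, were present on no array, so their readings are at background. The lists were chosen with earlier results of these data known, so their direction is not independent evidence. Ccne1, the cyclin that starts S phase, averaged 9.06 ± 0.28 in knockout and 8.42 ± 0.36 in wild type (log2 fold change 0.64, limma adjusted p = 0.164). Lig1, the gene of a DNA ligase that seals new strands, had a log2 fold change of 0.60 (limma adjusted p = 0.166). On the same scale Pcna, the sliding clamp of replication, read 0.37, Bub1b and Cenpf, of the mitotic checkpoint and the kinetochore, read 0.49 and 0.61, and the proliferation marker Mki67 read 0.75 (limma adjusted p = 0.309, 0.167, 0.172 and 0.19). Without knockout 4, 16 of 26 and 10 of 16 passed, all higher, in the fit that called 8.64% of all genes.

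**Figure D3:**
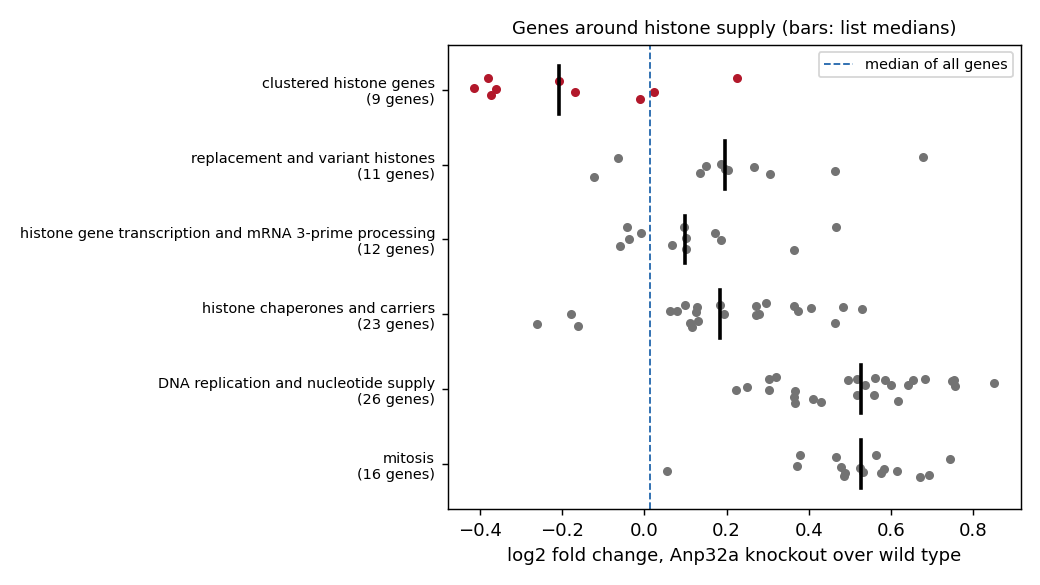
Log2 fold change, knockout over wild type, of every measured gene (points) in the clustered histone set (red) and in 5 lists around histone supply (grey), with list medians (bars) and the median of all genes (dashed line). The clustered histone median is -0.21, and the medians of the other lists run from 0.10 to 0.53.

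Of 11 replacement and variant histone genes, encoded outside the clusters, 9 had fold changes above 0, 4 of them at an unadjusted limma p under 0.05, against 10.1% of all genes higher, and 0 passed (median 0.20). The other 2 were the linker histone genes H1f0, at a log2 fold change of -0.12, and H1fx, which was present on no array. H2afx, which is marked at DNA breaks, read 10.70, 10.52, 10.77 and 9.93 in knockout, against 10.04, 9.98, 9.47 and 9.72 in wild type. Knockout 4 lay among the wild types and the other knockout arrays above them (log2 fold change 0.68, limma adjusted p = 0.16). H2afz, which encodes H2A.Z, had a log2 fold change of 0.31 (limma adjusted p = 0.177). Without knockout 4, 4 of the 11 passed, all higher, against 8.64% of all genes called.

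Of the 12 genes for the transcription of histone genes and the processing of the mRNA end, 4 read higher at an unadjusted limma p under 0.05, 0 lower, and 0 passed (median 0.10), against 10.1% of all genes higher and 9.26% lower. Slbp, whose protein binds the histone stem-loop, averaged 11.57 ± 0.29 in knockout and 11.11 ± 0.29 in wild type (log2 fold change 0.47, limma adjusted p = 0.196). Eri1, an exonuclease that trims the stem-loop end, had a log2 fold change of 0.36 (limma adjusted p = 0.175). Of the histone chaperones and carriers, 23 of 24 were measured, with 9 higher and 2 lower at an unadjusted limma p under 0.05, 0 past the threshold and a median of 0.18, against the same shares of all genes; Cabin1 was present on no array. The 2 lower ones were the chaperone gene Nap1l4 and the importin gene Ipo4, with log2 fold changes of -0.18 and -0.26. Chaf1b, a subunit of the assembly factor that acts at replication forks, had a log2 fold change of 0.37, Tonsl, which binds new histones there, 0.36, and Rbbp4, a histone-binding subunit of several complexes, 0.30 (limma adjusted p = 0.17, 0.16 and 0.179). Without knockout 4, 2 of 12 and 9 of 23 passed, all higher, against 8.64% of all genes called.

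The order of the arrays also differed between the sets. Relative to each gene's mean over the 8 arrays, the median of the 6 detected histone genes was 0.01, -0.42, 0.00 and -0.35 on knockout arrays 1 to 4, against 0.21, 0.22, 0.12 and 0.13 on wild-type arrays 1 to 4. Knockout 2 and knockout 4 were lowest. The replication list stood at 0.46, 0.31, 0.50 and -0.22 in knockout, against 0.08, -0.15, -0.64 and -0.31 in wild type, so that knockout 4 lay among the wild types there. That order was not shared by all histone readings. Hist1h2bp and Hist1h3f had knockout 2 and knockout 3 lowest. So did Hist1h2bc and the detected Hist1h3a probe set, which lie outside the rule, while Hist3h2ba, also outside it, had knockout 4 and knockout 2 lowest.

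**Figure D4:**
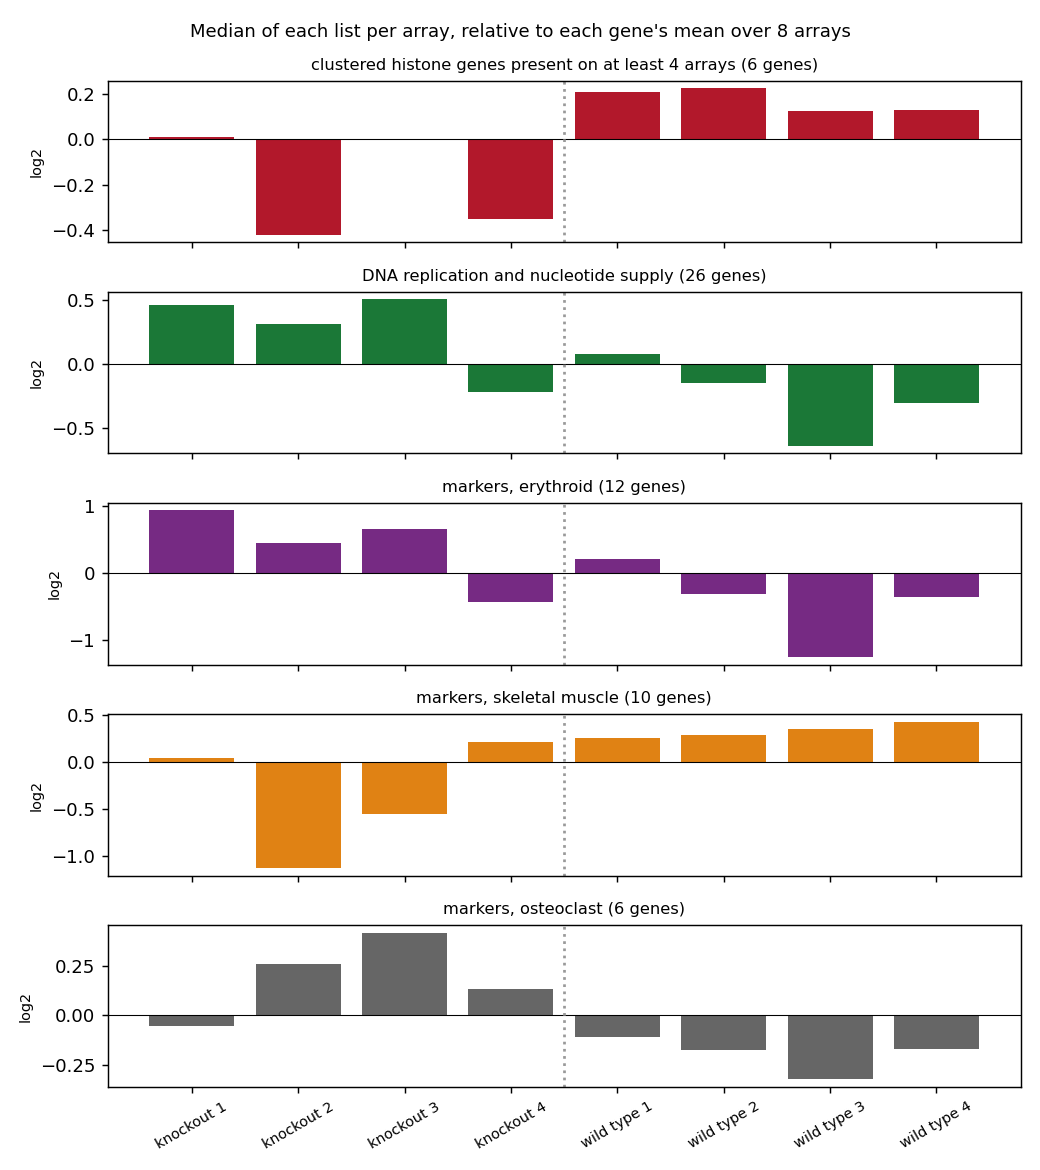
Median of each list on each array as a log2 difference from each gene's mean over the 8 arrays, knockout arrays left of the dotted line and wild-type arrays right of it. The median of the 6 detected histone genes is lowest on knockout 2 and 4 (-0.42 and -0.35), though not every gene has this order. The median of the muscle markers is lowest on knockout 2 and 3 (-1.13 and -0.55).

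Of the markers of cell types that the piece could hold, none passed the limma adjusted threshold. Several lists had more members at an unadjusted limma p under 0.05 than the 9.26% lower and 10.1% higher of all genes. The 10 skeletal muscle markers, all present on all 8 arrays, had array medians of -1.13 to 0.21 in knockout and 0.25 to 0.43 in wild type, and all 10 had an unadjusted limma p under 0.05, lower. Among their log2 fold changes, Tnnc2 read -0.35, Mybpc2 -1.04 and Myoz1 -1.08. Of the 12 measured erythroid markers 6 read higher at that p, with array medians of -0.43 to 0.94 in knockout and -1.25 to 0.22 in wild type (Hba-a1 was present on no array; Ermap read 1.07, Slc4a1 0.82 and Tfrc 0.18). Of 8 B cell markers 5 read higher (0.04 to 0.81 in knockout and -0.46 to -0.06 in wild type; Pax5 present on no array; Vpreb1 at 0.996, Igll1 at 0.76, Ebf1 at 0.02), and of 6 osteoclast markers all 6 (-0.05 to 0.42 in knockout and -0.32 to -0.11 in wild type; Tcirg1 at 0.53, Itgb3 at 0.67, Acp5 at 0.31). Of the 7 measured osteoblast and osteocyte markers 3 read higher (-0.05 to 0.21 in knockout and -0.19 to 0.06 in wild type; Dmp1 at 0.65, Phex at 0.71, Ibsp at -0.01), and of the 13 chondrocyte markers 1 (-0.14 to 0.39 in knockout and -0.17 to 0.21 in wild type; Matn1 at 0.68, Col11a2 at 0.16, Col2a1 at -0.01). None of the 8 neutrophil markers did (-0.18 to 0.42 in knockout and -0.42 to 0.13 in wild type; Prtn3 at 0.41, Camp at 0.30, S100a9 at 0.15). Their part in the histone readings was not tested. Knockout 1 and knockout 4 also lay below every wild type in the median of the muscle markers (0.04 and 0.21). For the single genes Acta1, Ckm, Tnnt3 and Atp2a1 knockout 4 lay within the wild-type range. With knockout 2 and knockout 3, which stood apart on the first principal component, left out together, Hist1h1c read -0.34, Hist3h2a -0.37, Hist2h2be -0.24 and Hist1h3d -0.28, while Hist1h2bp read -0.22 and Hist1h3f -0.26 (limma adjusted p = 0.623 to 0.743 over the 6).

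Single arrays moved the sizes of the fold changes more than their direction. With each array left out in turn, Hist1h1c read -0.42 to -0.29, Hist3h2a -0.45 to -0.30, Hist1h2bp -0.47 to -0.29 and Hist1h3f -0.48 to -0.35. Hist2h2be ran from -0.38 to -0.06, and Hist1h3d from -0.25 without knockout 3 to -0.07 without knockout 4. For these 6 genes every value stayed below 0.

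**Figure D5:**
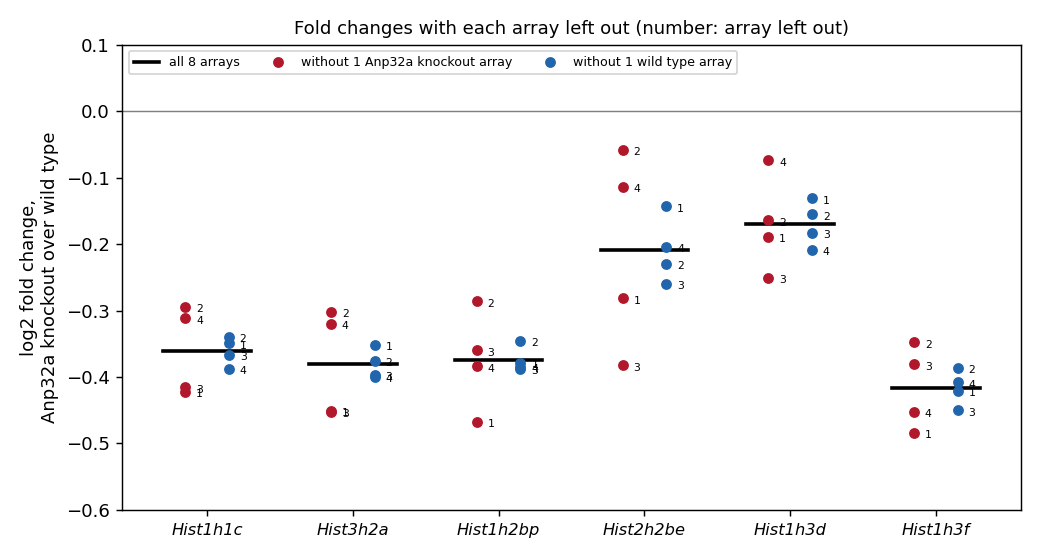
Log2 fold change, knockout over wild type (vertical axis), of the 6 detected clustered histone genes with all 8 arrays (black lines) and with 1 array left out (red points for knockout arrays, blue points for wild-type arrays, with the number of the array left out). All points lie below 0, and those of Hist2h2be spread widest, from -0.38 to -0.06.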

How the data were processed

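The deposited log2 values of each probe set come from RMA, per the submitters' processing notes, and no source used here gives a software version, array design or genome build. Per the file headers, the deposited table also holds detection calls (present, marginal or absent on each array), symbols, log2 fold changes and p-values with adjusted p-values of the authors' comparison. RMA gives all arrays 1 distribution, so a change shared by most genes would not show. Rows without an identifier (64) and probe sets without a symbol (6889) or with a date as symbol (62) entered no gene-level test.

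Each gene was represented by its probe set of highest mean (20667 genes). limma 3.58.1, run in R 4.3.3, compared the genotypes (lmFit and eBayes, two-sided, threshold 0.05) over all genes and over all 45037 probe sets. Precision is limited by having 4 arrays in each group, and present calls covered 57.6% to 60.1% of probe sets per array. On simulated data of this comparison, over 20667 genes, 36 of 50 genes with a log2 change of 0.5 were recovered. With a log2 change of 1, 44 of 50 were recovered. Of all 183 calls there, 11 were false, while the measured arrays gave 11 calls over all genes. Whether these recoveries hold for the measured arrays was not tested. The smallest size tried was 0.5, while the fold changes of the 9 members ran from -0.42 to 0.22. Recovery at the size of the members was not tested.

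The members and lists were chosen with earlier results of these data known. Named genes are all members, and per list the 2 genes of smallest p and the 1 of highest mean; Acan, Sox9, H1f0, Nap1l4, Ipo4 and genes present on no array were named after their values were seen. Alternatives were other probe sets per gene, a replicate block, a second quantile normalization, array weights, a detection filter and each array left out. Leaving out knockout 2 and 3 together was chosen after seeing the data.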

Additional observations from a re-analysis of the deposited data

Results flagged for a closer look

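Of 102 groups of 4 arrays tested for a single array far from the other 3, over the histone probe sets and the named genes of the lists, 6 had such an array, and chance gives such an array in about 1 group in 20. In the Hist1h1t probe set knockout 3 read 5.87, against 5.74 to 5.75 on the other knockout arrays, with a present call on no array. In Cenpf knockout 4 read 9.52, against 10.17 to 10.30 on the other knockout arrays. In Col11a2 knockout 2 read 12.66, against 12.24 to 12.30 on the other knockout arrays, and wild type 2 read 12.49, against 12.08 to 12.14 on the other wild types. In Igll1 knockout 3 read 9.62, against 8.68 to 8.75 on the other knockout arrays. In Tcirg1 wild type 4 read 9.89, against 9.74 to 9.76 on the other wild types.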

How the results depend on the processing

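Of the clustered histone genes 0 passed with all 8 arrays, and 0 to 1 with each array left out; of their probe sets likewise 0 and 0 to 1. The 1 was Hist1h3f, without knockout 4. No member passed under any other alternative. For Hist1h1c, Hist3h2a, Hist1h2bp, Hist2h2be, Hist1h3d and Hist1h3f the fold change stayed below 0 in every alternative that could be fitted. With each array left out Hist1h1t ran from -0.041 to 0.0048 and Hist2h2bb from -0.034 to 0.054, both changing sign. The H1 median was -0.36 among probe sets present on at least 4 arrays, since fewer genes were tested; no other family median moved by more than its spread between replicates. Of all genes 11 passed, with 1 to 1786 when an array was left out, 4 with the replicate block and 1 without knockout 2 and 3. In the lists 0 passed, and with an array left out 0 to 4 replacement and variant histones, 0 to 2 genes of histone mRNA, 0 to 9 chaperones, 0 to 16 replication genes and 0 to 10 mitosis genes, the upper counts without knockout 4; the cause was not tested. The deviations of same-numbered arrays correlated at 0.089, 0.555, -0.387 and 0.335. These values differ in sign, so they do not settle whether same-numbered arrays were handled together. The replicate block changed no call of a member. Hist1h2bp has no probe set outside those ending in _s_at or _x_at, and the near-background genes gave no value under the detection filter. Low signal over background limits what can be said of Hist1h1e, Hist1h1t and Hist2h2bb. Signal was also low for Hist1h2bp, Hist1h3d and Hist1h3f, although they were called present on most arrays.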
